A study of Homo sapiens with 12 samples.

Results

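The hexokinase family was followed here as 6 genes, matched by symbol to the Ensembl identifiers of the count files: HKDC1, HK1, HK2 and HK3, which encode hexokinases, GCKR, which encodes a regulatory protein of hepatocyte glucose phosphorylation, and ADPGK, which encodes a glucose kinase that uses ADP. All 6 were listed among 57820 genes, and 5 passed the filter on low counts. HK3 did not. RNA sequencing libraries of PLC/PRF/5, a human hepatoma cell line labelled as epithelial, fell into 3 groups of 4: control cells labelled wild type, HKDC1 knockout cells (KO), and such knockout cells with HKDC1 restored (KO_RES, the rescue). Knockouts were of 2 lines, KO1 and KO2, and each line gave 2 knockout and 2 rescue libraries, written here by line and number (KO 2_1 is line 2, number 1). The genotype field contradicts the title for KO_RES 1_1, KO_RES 2_1, KO 1_2 and KO 2_2. For both lines it reads knockout in the libraries numbered 1 and rescue in those numbered 2. Groups follow the titles. The labels name neither the edit, the vector used for the rescue, the oxygen level nor whether a line is a clone, and they do not say that libraries came from separate cultures, so p-values measure only the spread between these libraries, which may be technical.

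Hexokinases add phosphate from ATP to glucose, which traps the sugar in the cell and makes glucose 6-phosphate for glycolysis, glycogen and the pentose phosphate pathway. HK1 is found in most tissues, HK2 is typical of muscle, fat and many tumours and is a known target of the hypoxia factor HIF-1, HK3 is typical of white blood cells, and HKDC1 is a hexokinase domain protein that is low in healthy liver and raised in liver cancers. Adult hepatocytes rely on another hexokinase that GCKR holds in check, and ADPGK sits in the endoplasmic reticulum.

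The 2 genes on which the results turn, HKDC1 on chromosome 10 and HK2 on chromosome 2, are shown first by the 250 bases before their RefSeq start sites (GRCh38.p14, plus strand, 5′ to 3′). RefSeq gave 1 such window for HKDC1 and 2 for HK2. Capitals mark ACGTG, the core letters of a hypoxia response element, on either strand, which reads CACGT when it lies on the other strand. The E-box CACGTG holds both, so its matches overlap.
HKDC1, chr10:69220082-69220331: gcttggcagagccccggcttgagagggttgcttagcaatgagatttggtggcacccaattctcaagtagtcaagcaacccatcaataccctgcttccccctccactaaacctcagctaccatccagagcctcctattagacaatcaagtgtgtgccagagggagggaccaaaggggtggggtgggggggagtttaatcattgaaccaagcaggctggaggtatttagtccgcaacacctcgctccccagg
HK2, the first start, chr2:74833877-74834126: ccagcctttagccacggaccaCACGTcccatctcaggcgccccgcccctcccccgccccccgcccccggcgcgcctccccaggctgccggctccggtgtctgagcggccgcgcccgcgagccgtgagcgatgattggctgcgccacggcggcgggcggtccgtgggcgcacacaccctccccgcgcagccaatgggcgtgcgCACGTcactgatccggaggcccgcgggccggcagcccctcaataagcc
HK2, the second start, chr2:74834920-74835169: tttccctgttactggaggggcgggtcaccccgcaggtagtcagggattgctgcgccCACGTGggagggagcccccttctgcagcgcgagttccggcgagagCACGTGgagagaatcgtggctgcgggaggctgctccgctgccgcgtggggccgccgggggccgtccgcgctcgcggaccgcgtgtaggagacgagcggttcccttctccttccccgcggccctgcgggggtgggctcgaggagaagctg
HKDC1 had no match in its window. HK2 had 2 matches of ACGTG before the first start and 4 overlapping matches before the second, which are 2 E-boxes. Of 35116 RefSeq windows of the same length, 18.5% held ACGTG on either strand and 6.34% held the E-box. These matches are letters in a sequence. The counts are per gene and do not show which HK2 start was used.

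Library depth ran from 36075411 to 71853616 counts over genes. Values below are CPM, read counts relative to library size after TMM scaling, and 3 counts, taken as the floor, were worth 0.0408 to 0.0849 CPM. TPM, used to set genes against each other, is per kilobase of exon and is not TMM scaled. The hepatoma label was checked by 10 hepatocyte markers, all detected, with HNF4A at 143 CPM or more. The summed level of the 10 ran between 7582 and 19564 CPM in control, 1799 and 24725 in KO, and 1917 and 31715 in KO_RES. For KO against control none of the 10 rose and 5 fell by the test described below, which called 6.29% of all genes. The markers had a median log2 fold change of -0.98, beside 0.01 over all genes. ALB, APOA1, FGB and TTR were among those that fell. Of the 10, 1 had a log2 fold change above 0 for KO against control. In the line 1 rescues against control 1 rose and 4 fell, beside 18.2% of all genes called. ALB, which encodes albumin, was at 15.8 to 28.01 CPM in KO, and TTR, which encodes transthyretin, was at 1.60 to 34.1 CPM in control, 0.0937 to 1.03 in KO and 0 to 0.486 in KO_RES. Controls 1 and 2 stood apart from controls 3 and 4, with ALB between 23.0 and 908 CPM across the 4. For the members, results are therefore also given by pair of controls where this changed a call. The marker calls were not rerun by pair, and the lowest control value of ALB lay inside the KO range.

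**Figure D1:**
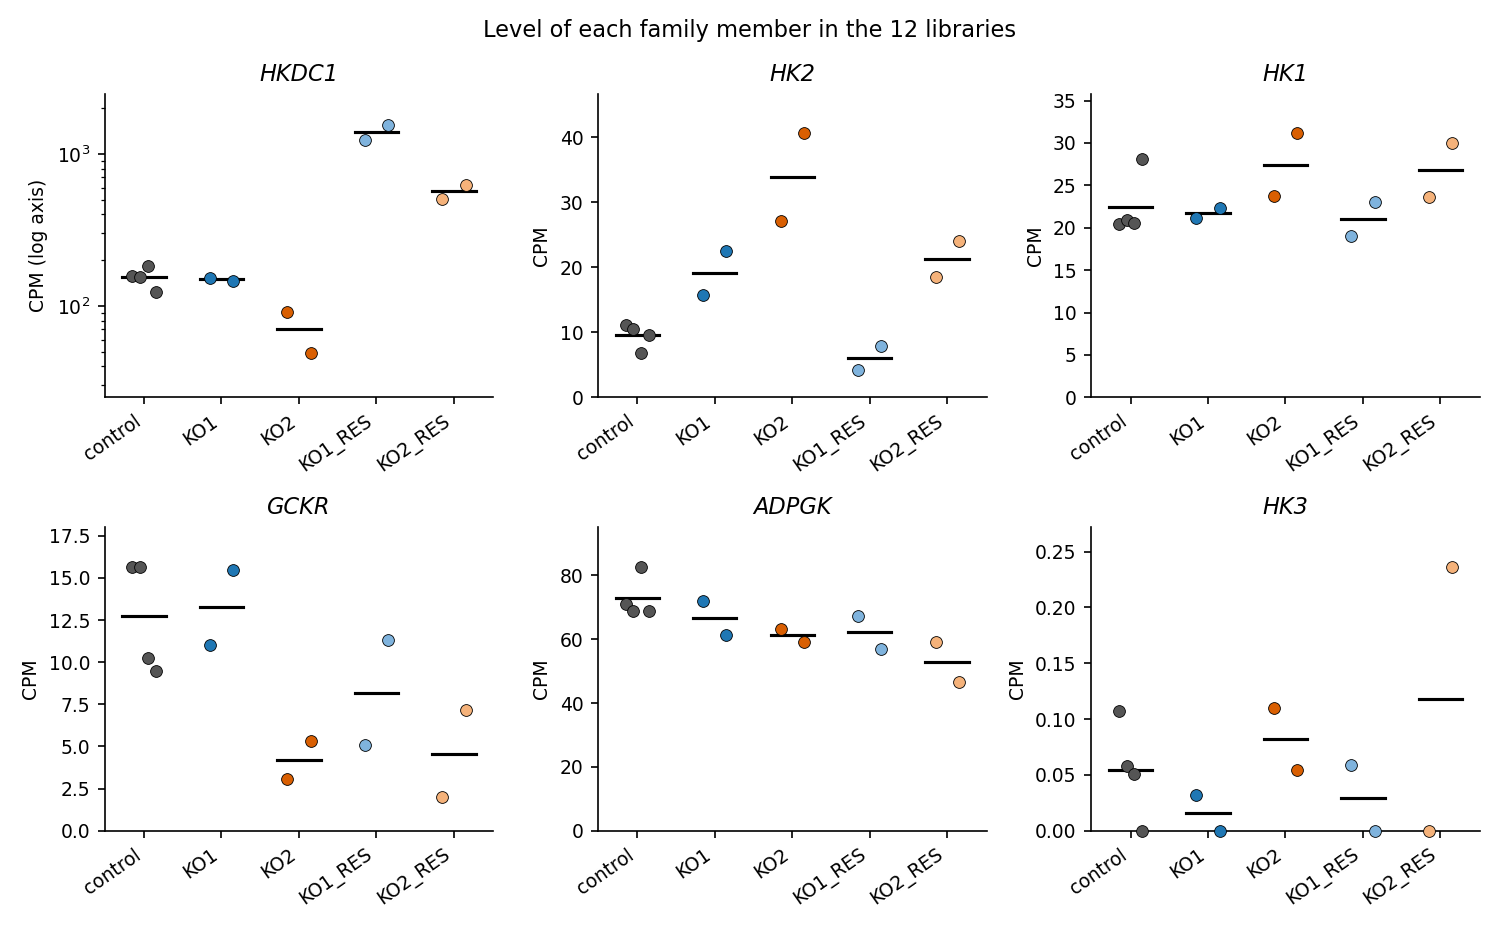
Levels of the 6 genes in CPM (vertical axis, log for HKDC1 and linear from 0 for the others) in control, the 2 knockout lines and their rescues (horizontal axis). Each point is a library and each bar the mean. HK2 lies above the control libraries in both knockout lines, HKDC1 lies above them in both rescues, and HK3 stays at or under 0.237 CPM.

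HKDC1 was lowered in line KO2 only to part of the control level, was at the control level in line KO1, and was far above it in both rescues. The controls were at 157, 154, 183 and 124 CPM. The KO1 libraries were at 153 and 147 CPM and the KO2 libraries at 91.2 and 49.3 CPM. Line 1 rescues were at 1237 and 1546 CPM, line 2 rescues at 507 and 626 CPM. Both KO1 libraries lay inside the control range, both KO2 libraries lay under it, and all 4 rescues lay above every other library. The library with the least HKDC1, KO 2_2, still held 3623 counts of it. The level of the mRNA does not check the knockout label of KO1.

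Tests were run with edgeR's quasi-likelihood test, and a gene was called at a Benjamini-Hochberg adjusted p under 0.05 over all genes tested. HKDC1 fell in KO2 against control, with a log2 change of -1.14 (SE 0.25, adjusted p = 0.0159), and not in KO1 (-0.05, SE 0.23, adjusted p = 0.92). The lines differed in HKDC1 by -1.09 (KO2 minus KO1, SE 0.27, adjusted p = 0.0266). Without KO 2_2, the fall in KO2 was -0.76 (adjusted p = 0.124) and the difference between lines was -0.71 (adjusted p = 0.162). The difference between lines was also lost without KO 1_1 (-1.05, adjusted p = 0.128) and without KO 1_2 (-1.12, adjusted p = 0.0958).

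HKDC1 rose in the rescue of each line. The rescue mean was 9.29 times the knockout mean in line 1 and 8.07 times in line 2. Pair by pair the factors were 8.08 for 1_1, 10.5 for 1_2, 5.56 for 2_1 and 12.7 for 2_2. The log2 fold change was 3.22 in line 1 (SE 0.29, adjusted p = 0.0042) and 3.01 in line 2 (SE 0.29, adjusted p = 0.0149). The difference between these rises was -0.21 (line 2 minus line 1, SE 0.38), which did not pass (adjusted p = 1). The rescues ended at unequal levels, with line 2 lower than line 1 by 1.30 on the log2 scale (log2 fold change -1.30, SE 0.27, adjusted p = 0.0103).

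Against control, the rescue mean of HKDC1 was 9.01 times in line 1 (log2 fold change 3.17, SE 0.23, adjusted p = 1.44e-05) and 3.67 times in line 2 (1.87, SE 0.22, adjusted p = 0.000767). With the lines joined, KO_RES against control gave 2.66 (SE 0.41, adjusted p = 0.00511), lost without controls 1 and 2 (2.68, adjusted p = 0.0602). KO_RES against KO gave 3.15 (SE 0.42), which missed the threshold (adjusted p = 0.159) and passed when line and number entered as a block of pairs (3.15, SE 0.20, adjusted p = 0.00746). The rise in line 2 was lost without KO 2_2 (2.63, adjusted p = 0.0862), without KO_RES 2_2 (2.86, adjusted p = 0.0874), without KO 1_1 (3.00, adjusted p = 0.0531), without KO 1_2 (3.00, adjusted p = 0.0523) and without controls 1 and 2 (3.00, adjusted p = 0.0675). The rise in line 1 was lost without KO 1_1 (3.26, adjusted p = 0.0688). The lines' unequal rescue levels were lost as a call without KO_RES 1_2 (-1.14, adjusted p = 0.0713).

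HK2 was the other member that passed a test. It stood at its highest in KO 2_2, where HKDC1 stood at its lowest, but was also raised in KO1, where HKDC1 was at the control level. Over the 12 libraries, which share lines and groups, the Pearson r of log2 CPM with HKDC1 was -0.553 for HK2 and -0.262 for HK1. HK2 in the controls was at 11.2, 10.5, 6.79 and 9.59 CPM. The KO1 libraries were at 15.7 and 22.5 CPM and the KO2 libraries at 27.1 and 40.6 CPM. Line 1 rescues were at 4.24 and 7.90 CPM, line 2 rescues at 18.5 and 24.0 CPM. Every knockout library lay above every control. The line 1 rescues lay inside or under the control range, and those of line 2 lay above it.

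HK2 rose in both lines against control. The log2 fold change was 1.0 in KO1 (SE 0.28, adjusted p = 0.0305), 2.01 times the control mean, and 1.83 in KO2 (SE 0.27, adjusted p = 0.00253), 3.56 times. The rise in KO2 passed in all 18 alternatives run for it, with adjusted p between 7.07e-18 and 0.0404. The rise in KO1 was lost in 6 of 18: without control 2 (1.04, adjusted p = 0.0511), without control 3 (0.87, adjusted p = 0.0525), without control 4 (0.99, adjusted p = 0.0592), without KO 1_1 (1.22, adjusted p = 0.0709), without KO 1_2 (0.72, adjusted p = 0.266) and without controls 3 and 4 (0.79, adjusted p = 0.09). The difference between lines, 0.83 (SE 0.33), did not pass (adjusted p = 0.138).

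HK2 was lower in the rescue than in its knockout in all 4 pairs, by unequal amounts. The rescue was at 0.269 times the knockout in pair 1_1, at 0.351 in 1_2, at 0.682 in 2_1 and at 0.590 in 2_2. The log2 fold change was -1.66 in line 1 (SE 0.34, adjusted p = 0.121) and -0.68 in line 2 (SE 0.33, adjusted p = 1), and neither passed in edgeR. DESeq2 called line 1 (-1.65, adjusted p = 0.000673), and edgeR did so with no filter for low counts (-1.65, adjusted p = 1.38e-08). The lines' difference in this change, 0.98 (line 2 minus line 1, SE 0.47), did not pass (adjusted p = 1).

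The rescued lines differed in HK2 in the direction opposite to HKDC1. The level of HK2 in KO2_RES was above that in KO1_RES by 1.81 on the log2 scale (SE 0.34, adjusted p = 0.00594), which did not pass without KO_RES 1_1 (1.41, adjusted p = 0.0641). KO2_RES was above control by 1.16 (SE 0.28, adjusted p = 0.0258), with HKDC1 at 3.67 times control in the same libraries. This rise was lost without KO_RES 2_2 (0.96, adjusted p = 0.19) and without controls 3 and 4 (0.94, adjusted p = 0.0611). KO1_RES did not pass against control (-0.65, SE 0.30, adjusted p = 0.162).

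**Figure D2:**
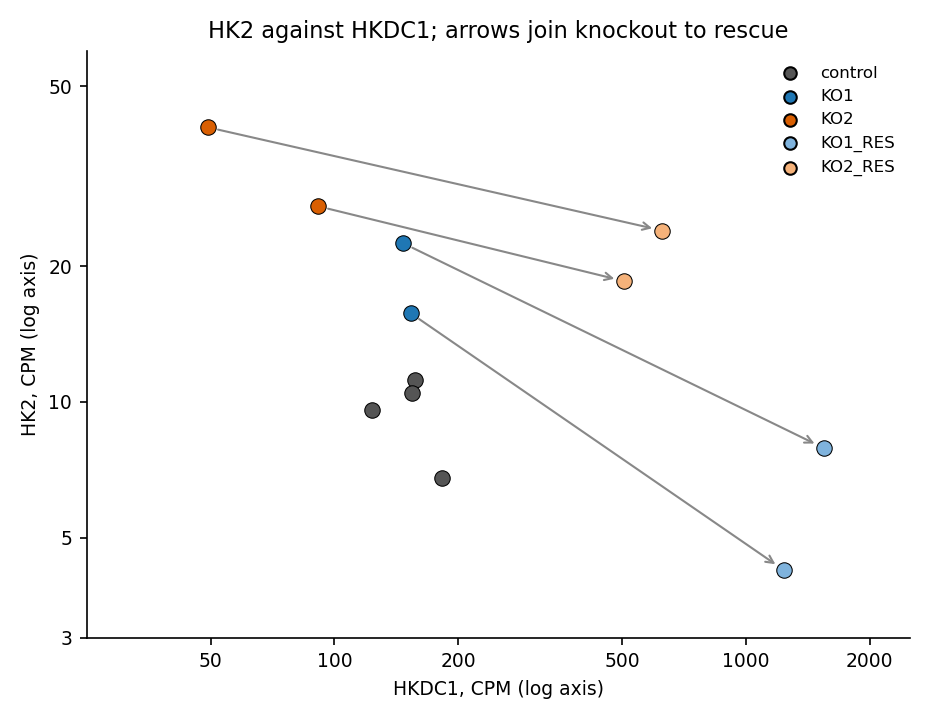
HK2 (vertical log axis, CPM) against HKDC1 (horizontal log axis, CPM), a point per library, with an arrow from each knockout library to the rescue library of the same line and number. All 4 arrows run to higher HKDC1 and lower HK2, and the line 2 rescues, at 18.5 and 24.0 CPM of HK2, lie above those of line 1 at 4.24 and 7.90 CPM.

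With the lines joined in 3 groups, HK2 missed the threshold. The control mean was 9.50 ± 1.92 CPM, the KO mean 26.5 ± 10.5 and the KO_RES mean 13.7 ± 9.16 CPM (SD, n = 4 each). KO against control gave 1.48 (SE 0.47, adjusted p = 0.0851), and it passed without KO_RES 1_1 (1.48, adjusted p = 0.0383). KO_RES against KO gave -0.95 (SE 0.46, adjusted p = 1) and KO_RES against control 0.52 (SE 0.46, adjusted p = 0.561). The pair block gave -1.14 for KO_RES against KO (SE 0.23, adjusted p = 0.149) in edgeR, and -1.17 in DESeq2, where it passed (adjusted p = 1.55e-05).

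HK2 is also high in muscle and fat, whose 5 markers summed to 0.540 to 0.691 CPM over the controls, 1.03 to 1.44 over KO and 0.879 to 1.86 over KO_RES. Of the 3 that passed the filter on low counts, CKM, the muscle creatine kinase, rose for KO against control by 1.90 on the log2 scale (SE 0.48, adjusted p = 0.0373), from 0.0359 to 0.266 CPM in control to 0.421 to 0.687 in KO. PLIN1, the lipid droplet protein of fat cells, rose for KO_RES against control by 1.76 (SE 0.42, adjusted p = 0.0313). Each comparison thus called 1 of 3, beside 6.29% and 5.44% of all genes, and the third marker was called in neither. MYH7 and ADIPOQ were at or under 0.0849 and 0.0234 CPM in every library, and MYH7 was at 0 in all of KO. The part of these markers in the HK2 result was not tested. In bulk RNA, fewer cells of a type and less RNA per cell cannot be told apart.

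HK1, the housekeeping hexokinase next to HKDC1 on chromosome 10, passed no test in any of 12 contrasts. The controls were at 20.4, 20.9, 20.5 and 28.1 CPM. The knockouts were at 21.1, 22.3, 23.7 and 31.2 CPM in the order 1_1, 1_2, 2_1 and 2_2. The rescues were at 19.0, 23.1, 23.7 and 30.0 CPM in the same order. The 3 groups overlapped throughout. The log2 fold change was 0.13 for KO against control (SE 0.17, adjusted p = 0.714), -0.04 for KO_RES against KO (SE 0.17, adjusted p = 1) and 0.09 for KO_RES against control (SE 0.17, adjusted p = 0.808). The pair block gave -0.04 for KO_RES against KO (SE 0.08, adjusted p = 0.876).

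ADPGK, whose product makes glucose 6-phosphate from glucose with the use of ADP, was slightly lower in the rescues than in control and did not pass. The controls were at 71.1, 68.8, 82.7 and 68.8 CPM. The KO1 libraries were at 71.9 and 61.3 CPM, the KO2 libraries at 63.2 and 59.2 CPM. Line 1 rescues were at 67.2 and 56.9 CPM, line 2 rescues at 59.3 and 46.7 CPM. In CPM all 4 rescues lay under all 4 controls, while the knockouts overlapped with control. In TPM, which is not TMM scaled, the rescues, at 28.7 to 34.9, overlapped with the controls, at 29.8 to 38.7. The KO mean was above the control mean in TPM, at 34.3 beside 33.1, and under it in CPM, at 63.9 beside 72.9. The rescue group of the genotype field, which is the libraries numbered 2 with knockouts included, passed against control (-0.38, adjusted p = 0.0466). That is not a comparison of the rescues alone. By title, KO_RES against control gave -0.34 (SE 0.12, adjusted p = 0.132). In line 2 alone it was -0.46 (SE 0.14, adjusted p = 0.0656), which passed without KO_RES 2_1 (-0.67, adjusted p = 0.0317), in DESeq2 (-0.48, adjusted p = 0.0296) and with no filter for low counts (-0.48, adjusted p = 0.0478). ADPGK was lower in the rescue in all 4 pairs, at 0.935, 0.929, 0.937 and 0.789 times its knockout, and the pair block gave -0.15 (SE 0.07, adjusted p = 0.398).

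GCKR, which binds and restrains the hexokinase of hepatocytes, was low in line 2 and uneven between the controls. The controls were at 15.7, 15.7, 10.2 and 9.48 CPM, so controls 1 and 2, which also held more ALB, were above controls 3 and 4. The KO1 libraries were at 11.0 and 15.5 CPM and the KO2 libraries at 3.08 and 5.32 CPM. Line 1 rescues were at 5.10 and 11.3 CPM, line 2 rescues at 1.98 and 7.16 CPM. All 4 libraries of line 2 lay under every control, and KO1 lay inside the control range.

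GCKR missed the threshold in KO2 against control with a log2 change of -1.60 (SE 0.52, adjusted p = 0.0792). It passed in DESeq2 (-1.61, adjusted p = 0.00575), with no filter for low counts (-1.61, adjusted p = 5.14e-08), without KO_RES 2_1 (-1.60, adjusted p = 0.0317), without KO_RES 2_2 (-1.60, adjusted p = 0.0319) and without controls 3 and 4 (-1.91, adjusted p = 0.0397). Against controls 3 and 4 alone it was -1.23 (adjusted p = 0.21). KO2_RES against control gave -1.49 (SE 0.51, adjusted p = 0.0988), and passed in DESeq2 (-1.51, adjusted p = 0.0114), with no filter for low counts (-1.52, adjusted p = 3.55e-07), without KO_RES 2_2 (-2.69, adjusted p = 0.0368) and without controls 3 and 4 (-1.81, adjusted p = 0.0482). Against controls 3 and 4 alone it was -1.13 (adjusted p = 0.246). KO2 against KO1 gave -1.65 (SE 0.57, adjusted p = 0.0893), which passed in DESeq2 (-1.66, adjusted p = 0.0145), with no filter for low counts (-1.65, adjusted p = 4.93e-07), without KO_RES 2_1 (-1.64, adjusted p = 0.0361) and without KO_RES 2_2 (-1.64, adjusted p = 0.0359). Of the 10 hepatocyte markers 2 fell in KO2 against control, beside 10.1% of all genes called, and 3 fell in KO2_RES, beside 9.63%. The markers had median log2 fold changes of -2.43 and -2.69, beside 0.0005 and 0.0092 over all genes. Their part in the GCKR values was not tested.

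HK3, the hexokinase of white blood cells, was at the floor in most libraries. Its counts were 6, 4, 3 and 0 in the controls. They were 2, 0, 6 and 4 in the knockouts and 3, 0, 0 and 16 in the rescues, in the order 1_1, 1_2, 2_1 and 2_2. The 16 counts in KO_RES 2_2 were 0.237 CPM. No fold change is given. The 9 blood cell markers summed to 269 to 922 CPM, nearly all of it LYZ, which encodes lysozyme, while PTPRC, the common leukocyte antigen, was at or under 0.0896 CPM and HBB at or under 0.0283 CPM.

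**Figure D3:**
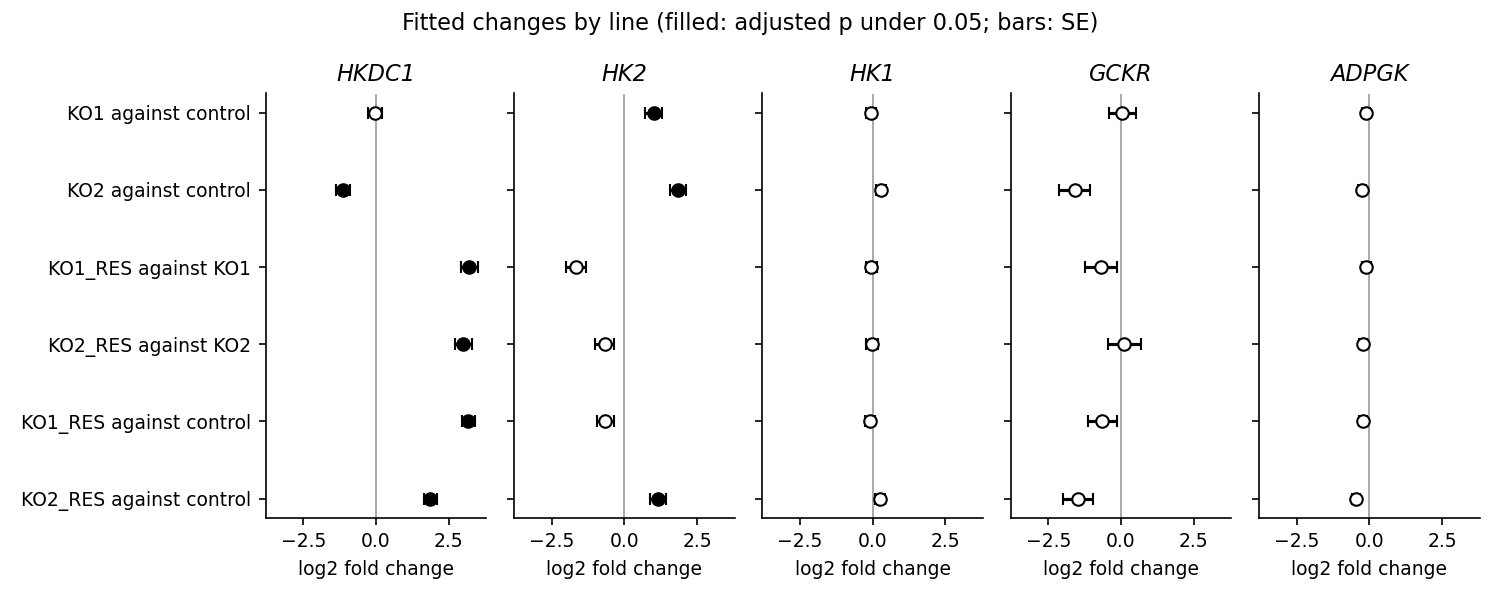
Log2 fold changes (horizontal axis) with SE bars for 5 genes in 6 contrasts of the 5-group fit (vertical axis). Filled points passed at an adjusted p under 0.05. They are HK2 in KO1, KO2 and KO2_RES against control, and HKDC1 in each contrast but KO1 against control.

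Set against all genes tested, the members' calls were as follows. In the 3-group fit, 0 of 5 members were called for KO against control, where 6.29% of 19200 genes were. For KO_RES against control 1 of 5, HKDC1, was called, beside 5.44% of all genes. For KO_RES against KO edgeR called 0 members and 0% of all genes, while 474 genes had an unadjusted p under 0.05 and DESeq2 called 5 genes. The pair block called 1 member, HKDC1, and 8 of 18293 genes, which is 0.0437%.

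By line, KO1 against control called 1 of 5 members, HK2, beside 18.1% of 20559 genes. KO2 against control called 2, HKDC1 and HK2, beside 10.1%. KO1_RES against control called 1, HKDC1, beside 18.2%, and KO2_RES against control called 2, HKDC1 and HK2, beside 9.63%. KO1_RES against KO1 called HKDC1 beside 0.199% of all genes. In KO2_RES against KO2 HKDC1 was the only gene called, which is 0.00486%. KO2 against KO1 called HKDC1 beside 12% of genes, and KO2_RES against KO1_RES called HKDC1 and HK2 beside 14%. The difference between lines in the rescue called 0 members and 0% of genes, while 596 genes had an unadjusted p under 0.05 and DESeq2 called 32. Comparisons with control share the same 4 control libraries.

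In CPM, the libraries of KO and control did not overlap for 1 of 5 members, HK2, and for 16.8% of all genes. Those of KO_RES and KO did not overlap for HKDC1 and for 1.67% of genes. Those of KO_RES and control did not overlap for 2 members, HKDC1 and ADPGK, and for 13.6% of genes. The rescue lay on the same side of the knockout in all 4 pairs for 3 of 5 members, HKDC1, HK2 and ADPGK, and for 24.2% of genes.

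HKDC1 supplied most of the hexokinase transcripts in 11 of 12 libraries. Per exon length, its share of the summed HKDC1, HK1, HK2 and HK3 was 87.3 ± 3.30% in control, 72.6 ± 16.3% in KO and 96.6 ± 2.44% in KO_RES (SD, n = 4 each). It was 85.8 and 82.6% in KO1, 72.1% in KO 2_1 and 49.8% in KO 2_2, which is the library under a majority. As a share of raw counts it was 82.5 ± 4.30%, 65.5 ± 18.0% and 95.1 ± 3.42%, and 40.7% in KO 2_2. The 95% Wilson intervals of the count shares were at most 2.13 percentage points wide and cover counting error only, since PCR copies of a molecule were not marked.

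HK2 took a larger share of the hexokinase transcripts in the knockouts than in the controls. Per length of all exons its share was 3.86 ± 1.01% in control, 14.7 ± 10.1% in KO and 1.39 ± 1.26% in KO_RES, and it reached 28.8% in KO 2_2. The HK1 share was at 8.84 ± 2.63%, 12.6 ± 6.16% and 2.02 ± 1.16%. In the controls HK1 was above HK2 in each library, with HK2 at 0.344 to 0.568 times HK1 per length. In the knockouts the ratio was 0.773, 1.05, 1.19 and 1.35 in the order 1_1, 1_2, 2_1 and 2_2, so that HK2 was above HK1 in 3 of 4. In the rescues it was 0.231, 0.355, 0.813 and 0.828, with HK1 above HK2 in all 4. Which of the 2 genes is higher in the knockouts turns with the length used. Per length of the longest transcript the knockout ratios were 0.516, 0.698, 0.792 and 0.902, so that HK1 was above HK2 in all 4, beside 0.229 to 0.379 in the controls and 0.154 to 0.553 in the rescues. With either length all 4 knockout ratios lay above all 4 control ratios, and the rescue ratios of line 2 did too.

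The summed hexokinase level overlapped between control and KO. It was 111 ± 13.7 TPM in control, 109 ± 28.6 TPM in KO and 766 ± 359 TPM in KO_RES (SD, n = 4 each). Without HKDC1 it was 13.9 ± 2.27, 26.7 ± 8.97 and 20.2 ± 8.79 TPM. The knockouts, at 18.3 to 39.4 TPM, all lay above the controls, at 12.2 to 17.2 TPM, and the rescues overlapped with both. Lacking TMM scaling, TPM can differ from CPM between groups. The mean of HK1 was 22.5 CPM and 9.65 TPM in control, and 24.6 CPM and 12.5 TPM in KO. The sums were not made in CPM, so this separation is given for TPM alone. With the longest transcript as the length the knockouts, at 19.4 to 39.8 TPM, overlapped with the controls, at 14.1 to 20.04 TPM. In KO 2_2 the sum without HKDC1 was 39.4 TPM, beside 39.0 TPM of HKDC1 itself.

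**Figure D4:**
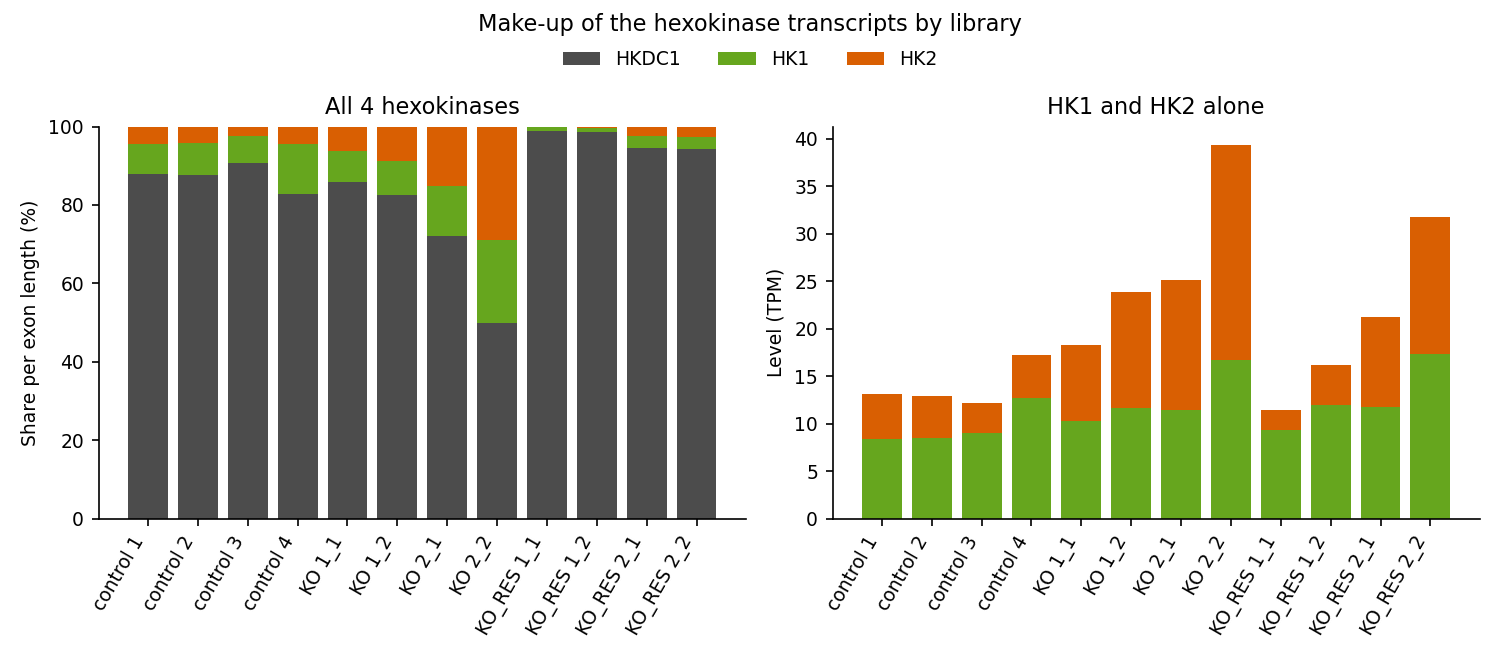
Make-up of the hexokinase transcripts in each library (horizontal axis). The left panel gives the share per exon length in percent, and the right panel the stacked TPM of HK1 and HK2. HKDC1 fills 49.8% of the bar of KO 2_2 and 82.8 to 90.7% of the control bars, and the HK2 part of the right panel is largest in KO 2_2.

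The order of the members within the controls, per length, was HKDC1 at 97.4 ± 15.4 TPM, ADPGK at 33.1 ± 3.96, GCKR at 10.8 ± 2.31, HK1 at 9.65 ± 2.07, HK2 at 4.20 ± 0.74 and HK3 at 0.043 ± 0.034 (SD, n = 4 each). GCKR and HK1 differed by less than their spread, and their order changes between controls. In KO the order was HKDC1 at 81.9 ± 36.1 TPM, ADPGK at 34.3 ± 2.04, HK2 at 14.1 ± 6.16, HK1 at 12.5 ± 2.85 and GCKR at 8.90 ± 5.81, and the last 3 overlapped. In KO_RES HKDC1 was at 746 ± 365 TPM, ADPGK at 31.5 ± 2.56, HK1 at 12.6 ± 3.40, HK2 at 7.58 ± 5.50 and GCKR at 6.74 ± 4.20. With the longest transcript as the length HK1 stood above HK2 in KO, at 15.6 ± 3.60 and 11.7 ± 5.16 TPM, and GCKR above HK2 in KO_RES, at 7.68 ± 4.78 and 6.31 ± 4.60 TPM, so these neighbours have no fixed order.

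The enzymes that use the product of the hexokinases changed in both directions. Of 26 genes listed for the fate of glucose 6-phosphate, 23 were tested, and for KO against control 2 rose and 2 fell, where 6.29% of all genes were called, with a median log2 fold change of -0.09 beside 0.01 over all genes. PFKP, the platelet form of phosphofructokinase, rose by 1.30 (SE 0.24, adjusted p = 0.0109), from 49.3 ± 10.7 to 121 ± 34.9 CPM. PFKFB2, which makes the activator of phosphofructokinase, rose by 0.69 (SE 0.14, adjusted p = 0.0171). PFKL, the liver form of phosphofructokinase, had a log2 change of -0.71 (SE 0.14, adjusted p = 0.0119), from 215 ± 17.7 to 132 ± 26.2 CPM. For KO_RES against KO, where 0% of all genes were called, PFKP was at 81.1 ± 18.0 CPM and PFKL at 145 ± 12.4 CPM in KO_RES. In KO2 SLC37A4, which carries glucose 6-phosphate into the endoplasmic reticulum, fell against control with a log2 change of -0.78 (SE 0.14, adjusted p = 0.00759).

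Among the glucose transporters that supply hexokinase, SLC2A3 fell in line KO1 and SLC2A2 in line KO2. Of 13 listed, 11 were tested in the 3-group fit. For KO against control 0 were called, and for KO_RES against control 1 fell, SLC5A2 (-1.93, SE 0.51, adjusted p = 0.0473), beside 5.44% of all genes. By line, 1 rose and 3 fell of 12 tested in KO1, where 18.1% of all genes were called, and 1 rose and 1 fell in KO2, where 10.1% were. SLC2A3, a transporter of high affinity, fell in KO1 with a log2 change of -3.07 (SE 0.28, adjusted p = 8.42e-05), to 41.4 and 40.3 CPM from 247 to 413 in control. It was at 604 and 507 CPM in KO2. SLC2A2, the transporter of hepatocytes, fell in KO2 with -2.84 (log2, SE 0.19, adjusted p = 1.8e-05), to 8.94 and 9.65 CPM from 54.3 to 75.4 in control, and was at 58.0 and 68.2 CPM in KO1. The others called, SLC5A2 (-2.70) and SLC2A10 (2.78) in KO1 and SLC2A5 (2.09) in KO2, had means under 1 CPM.

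Other sugar kinases were called in both directions. Of 15 other sugar kinases, which include the phosphofructokinases above, 2 rose and 3 fell for KO against control, beside 6.29% of all genes called, with a median log2 fold change of -0.15 beside 0.01 over all genes. In KO1 3 rose and 5 fell beside 18.1% of all genes, and in KO2 1 rose and 3 fell beside 10.1%. TKFC, the triose kinase of fructose breakdown, fell with a log2 change of -0.59 (SE 0.13, adjusted p = 0.0233). GNE, which phosphorylates the precursor of sialic acid, fell in KO2 with -1.04 (SE 0.15, adjusted p = 0.00204), and PFKM, the muscle phosphofructokinase, rose in KO1 by 0.95 (SE 0.17, adjusted p = 0.00392). HK1 and HK2 dock on the porins of the outer mitochondrial membrane. Of 7 genes listed for that site 6 were tested, and 1 was called for KO against control, beside 6.29% of all genes. TSPO, an outer membrane protein next to the porins, fell there with -0.66 (SE 0.16, adjusted p = 0.0373). By line, 1 of the list rose in KO1, beside 18.1% of all genes called. In KO2 1 rose and 1 fell, beside 10.1%. Of the ATP/ADP carriers of the inner membrane, SLC25A4 rose in KO1 by 0.63 (SE 0.12, adjusted p = 0.00547) and SLC25A5 in KO2 by 0.79 (SE 0.15, adjusted p = 0.00965). KO_RES against KO, which called no gene at all, says nothing about either list.

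The genes next to HKDC1 were read in the same fits. The 4 protein-coding genes on each side were, in the annotation's order, KIFBP, SRGN, VPS26A and SUPV3L1 before it and HK1, TACR2, TSPAN15 and NEUROG3 after it. TACR2 and NEUROG3 were at the floor in all 12 libraries and were not tested. TSPAN15, a membrane scaffold of the ADAM10 protease, was at 33.6, 36.1, 30.9 and 31.6 CPM in the controls. It was at 27.1, 21.0, 22.2 and 23.2 CPM in the knockouts in the order 1_1, 1_2, 2_1 and 2_2. All 4 knockouts lay under all 4 controls, while KO and control libraries did not overlap, in either direction, for 16.8% of all genes. TSPAN15 fell with a log2 change of -0.50 (SE 0.11, adjusted p = 0.0257). It was the only neighbour called of 6 tested, beside 6.29% of all genes. Against control it also fell in KO_RES (-0.78, SE 0.11, adjusted p = 0.00401).

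SUPV3L1, the mitochondrial RNA helicase just before HKDC1, rose in KO1 by 0.63 (SE 0.12, adjusted p = 0.00562) and gave 0.35 in KO2 (SE 0.12, adjusted p = 0.104). SRGN, the secretory granule proteoglycan, rose in KO1 by 2.14 (SE 0.49, adjusted p = 0.0134) at a level of 1.29 and 1.97 CPM. VPS26A and KIFBP were not called in any contrast. For KO_RES against KO, where 0% of all genes were called, the 6 neighbours had log2 fold changes between -0.62 and 0.02, beside 3.15 for HKDC1.

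Over the 12 libraries, the genes whose log2 CPM followed HKDC1 most closely, of 12293 genes with a mean of at least 2 CPM, were KIAA0586 (Pearson r = 0.847), DBF4B (0.818), TBC1D10B (0.782), TTC7B (0.776) and CELSR3 (0.771). For HK2 they were FEM1B (0.932), SULT1A1 (0.931), SLCO4A1 (0.918), ACVRL1 (0.897) and LUCAT1 (0.896). For HK1 they were MILIP (0.967), EFR3B (0.942), TCF7 (0.941), IQCN (0.939) and TMEM52 (0.938). GCKR was followed by S100P (0.966), GSAP (0.951), RETSAT (0.946), NORAD (0.946) and SERINC3 (0.942), and ADPGK by TPD52L2 (0.963), TXNRD2 (0.961), WDR1 (0.958), RNF167 (0.951) and GRPEL1 (0.949). The highest value found for HKDC1 was under the fifth value of every other member. These are the highest of many values over libraries that share lines and groups, and are given as a description.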

How the data were processed

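RNA of 12 PLC/PRF/5 libraries was made into stranded mRNA libraries, per the labels' protocols. The deposited files hold raw counts per gene that the authors made, with STAR 2.6.0b and GRCh37 named in the submitters' processing notes. Other filters are not given in the sources used here. Column 4 (stranded) was used, since its total was 19.8 to 21.1 times that of the opposite strand. Unstranded counts of HKDC1 and ADPGK were 90.3 to 92.9% and 92.1 to 96.8% of the stranded ones. Unassigned reads (23.2 to 31.5%) were left out. Symbols came from a gene name table (39538) and GENCODE 29 (752).

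Low counts were removed with filterByExpr and TMM scaling applied in R 4.3.3. Tests used edgeR 4.0.16 quasi-likelihood fits of 3 groups (19200 genes) and 5 groups (20559 genes). Adjusted p-values (Benjamini-Hochberg) run over all genes tested. SE is the fold change over the root of F. Alternatives included DESeq2 1.42.0, RLE scaling, no filter, unstranded counts and leaving out libraries. Log2 CPM used a prior count of 2. TPM used the union of GENCODE 29 exons. RefSeq windows are of GRCh38.p14, so no gene coordinates of the files are given. Scripts were tested on simulated data.

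Same-numbered knockout and rescue libraries of a line deviated together from their group means (correlations 0.716, 0.755, 0.772 and 0.739). The group means pool both lines, so differences between the lines enter these values, and their size does not show pairing by number. For each knockout library the highest correlation was with its own number, ahead of the other rescue of its line. Line and number were therefore taken to pair them.

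Members and lists were chosen with earlier results of these data known. Besides the members, of each list up to 3 called genes of smallest adjusted p in a comparison, the 8 neighbours and the 5 genes most like each member are named. Marker genes named were chosen after their values were seen, and 1 marker is not reported here.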

Additional observations from a re-analysis of the deposited data

Results flagged for a closer look

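HK1 in control 4 was at 28.1 CPM, apart from the other 3 controls, and ADPGK in control 3 was at 82.7 CPM, apart from its other 3 controls, by Dixon's ratio over its 95% critical value (ratios of 0.933 and 0.830). Among 18 groups tested, chance gives about 1 in 20 such values. The lines differed, by a test of the difference itself, in HKDC1 in the knockouts (log2 fold change KO2 minus KO1 of -1.09), in HKDC1 in the rescues (KO2_RES minus KO1_RES of -1.30) and in HK2 in the rescues (1.81).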

How the results depend on the processing

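Over all members and contrasts, 1101 alternative values were computed: 1015 kept their direction and side of the threshold, 22 lost the call, 32 gained it and 32 changed sign. A line rests on 2 libraries. Without 1 of them the other is assumed to vary like the rest, and many values near an adjusted p of 0.05 move across it. The cause of each change below was not tested. All values are log2 fold changes unless a share is named.

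With a replicate block for HKDC1 in KO_RES against KO, the values were 3.15 by line and number, 3.12 by line, and 3.14 in DESeq2 by line and number, and all passed. DESeq2 without the block gave 3.15 and the mean of both lines 3.11, which passed too. The replicate block of line and number in DESeq2 called HK2 (-1.17). The block changed no other member's call in edgeR, and moved the count of genes called from 0 to 8. For KO against control HK2 passed in DESeq2 (1.47), with only the groups compared (1.48) and as the mean of both lines (1.42).

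Grouping by the genotype field changed the sign of HKDC1 in KO against control (1.69), of HK1 there (-0.038) and in KO_RES against KO (0.28), of HK2 (0.53) and GCKR (0.88) in KO_RES against KO, ended the call of HKDC1 in KO_RES against control (1.94) and gave ADPGK one there (-0.38). Groups by that field mix libraries titled knockout and rescue. With only the libraries whose fields agree, HK1 changed sign in KO against control (-0.0049) and in KO_RES against KO (0.25). GCKR changed sign in the latter (0.40). Without controls 1 and 2, HKDC1 lost its call in KO_RES against control (2.68) and in KO2_RES against KO2 (3.00), and HK1 changed sign in KO_RES against control (-0.020). Without controls 3 and 4, HK2 lost its call in KO1 (0.79) and KO2_RES (0.94) against control, while GCKR (-0.27) and HK1 (0.048) in KO1, and HK1 in KO1_RES (0.017), changed sign against control. Without the filter on low counts HK2 passed in KO1_RES against control (-0.66), KO1_RES against KO1 (-1.65) and KO2 against KO1 (0.83), and DESeq2 also called KO1_RES against KO1 (-1.65). Per exon length the control share of HKDC1 was 87.3% and that of HK2 3.86%, further from the count shares than their spread.

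Leaving out each library in turn, HKDC1 ran from -0.16 to 0.048 in KO1 against control, from -1.64 to -0.76 in KO2 against control, from 3.05 to 3.37 in KO1_RES against KO1, from 2.63 to 3.503 in KO2_RES against KO2, from -1.59 to -0.71 in KO2 against KO1, from -1.46 to -1.14 in KO2_RES against KO1_RES and from -0.59 to 0.28 in the lines' difference in rescue. HK2 ran from 1.20 to 1.66 in KO against control, from 0.72 to 1.22 in KO1 against control, from 0.96 to 1.30 in KO2_RES against control and from 1.41 to 2.32 in KO2_RES against KO1_RES. Uncalled values near 0 changed sign. HK1 ran from -0.0033 to 0.25 in KO against control, from -0.11 to 0.054 in KO1 against control, from -0.16 to 0.10 in KO_RES against KO, from -0.033 to 0.21 in KO_RES against control, from -0.25 to 0.034 in KO1_RES against control, from -0.19 to 0.10 in KO1_RES against KO1 and from -0.24 to 0.17 in KO2_RES against KO2. GCKR ran from -0.22 to 0.26 in KO1 against control and from -1.09 to 0.74 in KO2_RES against KO2, and ADPGK from -0.22 to 0.032 in KO1_RES against KO1 and from -0.23 to 0.013 in KO2 against KO1.

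The count of all genes called, which is the base of the shares given beside the members, moved by over 1.5 times in every comparison under some alternative. For KO against control (1207) it ran from 75, with only the libraries whose fields agree, to 3309 for the mean of both lines, with 2287 in DESeq2 and 771 without the filter. For KO_RES against control (1045) the same settings gave 59, 3190, 2053 and 681, and for KO_RES against KO (0) the highest was 460, in DESeq2 with the replicate block. By line the counts ran from 1280 to 4922 for KO1 (3720), 531 to 3837 for KO2 (2067), 1321 to 5053 for KO1_RES (3733) and 795 to 3835 for KO2_RES (1980) against control, from 1 to 548 for KO1_RES against KO1 (41), 0 to 41 for KO2_RES against KO2 (1), 870 to 3650 for KO2 against KO1 (2462), 1168 to 4168 for KO2_RES against KO1_RES (2874) and 0 to 192 for the lines' difference in rescue (0). HK3 lies under what this depth can compare.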
